A study of Bos taurus with 6 samples.

Results

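Troponin is the calcium switch of striated muscle. It sits on the thin filament as a complex of 3 subunits: troponin C binds calcium, troponin I holds the actin sites shut at rest, and troponin T ties the complex to tropomyosin. Slow fibres and fast fibres build the complex from different genes, so that the gene used for each subunit is a common sign of fibre type in skeletal muscle, and the heart uses forms of its own.

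The troponin genes were picked by name from the gene names carried by the deposited transcripts. They are 8 genes of the 18010 genes listed: the slow skeletal genes TNNT1, TNNI1 and TNNC1 (TNNC1 also serves the heart), the fast skeletal genes TNNT3, TNNI2 and TNNC2, and the cardiac genes TNNT2 and TNNI3. No transcript of the 6 animals was carried under the name TNNI3, and it was not analysed here. The other 7 genes were all measured, and all 7 passed the filter on low values (mean FPKM of 1 or more in either breed), which left 9781 genes.

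RNA-Seq had been performed on longissimus dorsi muscle of 3 Shandong Black cattle (B1 to B3) and 3 Luxi cattle (L1 to L3), all 18 months old, with 1 library per animal, to find genes that differ between the breeds in connection with fat deposition. Shandong Black cattle descend from Japanese black, Luxi and Bohai black cattle, and Luxi cattle are a local Chinese beef breed. Neither group received a treatment, and both were fed under the same management rules. The animals of each breed came from a supplier of their own, so breed and origin cannot be told apart.

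Levels are given as FPKM, which counts fragments against transcript length and library size, summed over the transcripts of a gene. FPKM is scaled by length. Values of different genes are still only roughly comparable, since depth can be uneven along a transcript and the sum depends on which transcripts are counted. Each library rested on 14.1 to 14.6 gigabases of aligned sequence in Shandong Black cattle and on 17.5 to 17.99 gigabases in Luxi cattle. Across the genes tested, the mean Pearson correlation of a library with the other libraries of its breed was between 0.941 and 0.958 in Shandong Black cattle, 0.911 in L2 and 0.919 in L3. It was 0.883 in L1, which stood apart from all others and is left out in turn below. In a whole piece of muscle, fewer fibres of a type and less RNA per fibre cannot be told apart.

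The 7 genes together made up 2.12 to 2.23% of all FPKM in Shandong Black cattle and 1.84 to 2.98% in Luxi cattle. TNNC1 was the gene with rank 9 by mean FPKM over the 6 animals among all genes listed, TNNC2 had rank 16, and the lowest of the skeletal genes, TNNI1, had rank 94. TNNT2 had rank 8034. Troponin C transcripts, slow and fast together, stood at 4.82 to 5.58 times the FPKM of troponin T in Shandong Black cattle and at 2.66 to 3.87 times in Luxi cattle, without overlap. This ratio was not tested between the breeds, and the depth along TNNT1 differed between them, as given below. Troponin T stood at 1.01 to 1.73 times the FPKM of troponin I in the first breed and at 1.17 to 2.03 times in the second. Ratios to troponin I depend on the transcripts counted for TNNI1. In B1 this gene had an FPKM of 438, but of 29.97 on transcripts of the reference annotation alone.

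**Figure D1:**
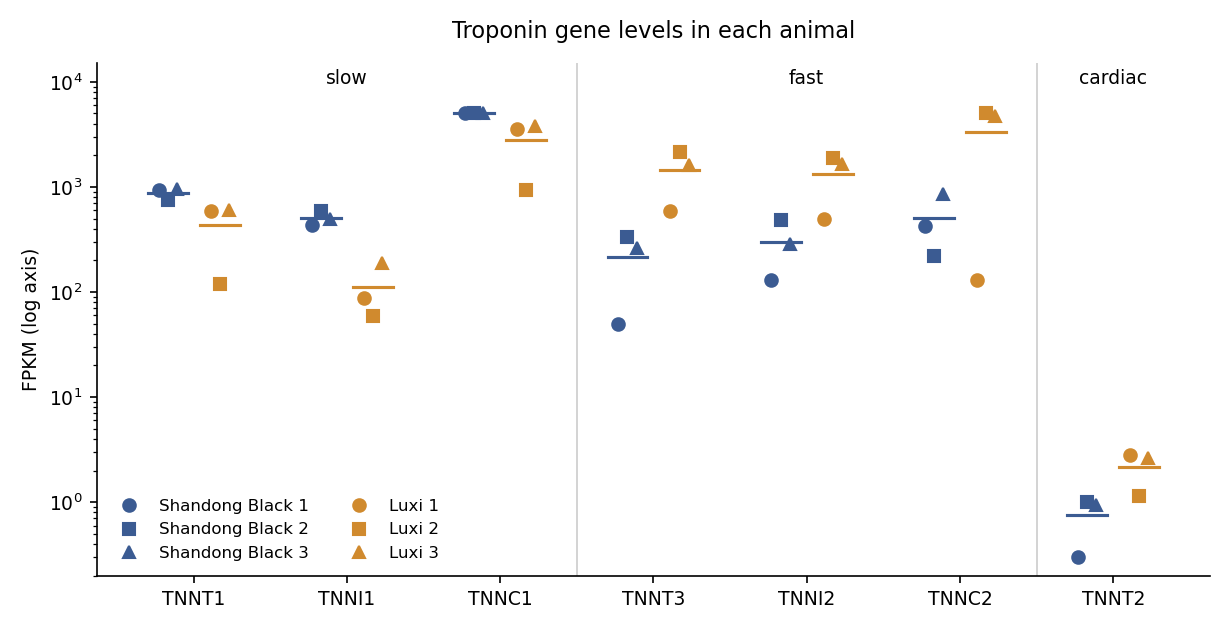
FPKM (log axis) of the 7 troponin genes in each of 3 Shandong Black and 3 Luxi cattle, with a horizontal line at the mean of each breed. The slow genes sit lower in every Luxi animal and TNNT3 and TNNI2 sit higher, while TNNC2 of L1, at 129, is the lowest value of that gene.

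The order of the levels differed between the breeds. In Shandong Black cattle, TNNC1 had a mean FPKM of 5037 ± 33.6 (SD, n = 3) and was followed by TNNT1 (879 ± 113), TNNI1 (506 ± 76.9), TNNC2 (503 ± 329), TNNI2 (301 ± 176), TNNT3 (214 ± 147) and TNNT2 (0.750 ± 0.393). From TNNI1 down to TNNT3, the range of each gene overlapped that of its neighbour in this order. In Luxi cattle, the fast gene TNNC2 came first with 3321 ± 2769 (SD, n = 3), followed by TNNC1 (2772 ± 1597), TNNT3 (1442 ± 790), TNNI2 (1334 ± 741), TNNT1 (436 ± 275), TNNI1 (112 ± 69.2) and TNNT2 (2.18 ± 0.908). There, every gene but TNNT2 overlapped the next one in the order.

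Between the breeds, 1 of the 7 genes was differentially expressed by limma with Benjamini-Hochberg adjustment over all 9781 genes (adjusted p under 0.05, fold change of 1 or more on the log2 scale, either way). The same rule called 2.57% of the genes tested: 151 (1.54%) were higher and 100 (1.02%) lower in Luxi cattle. With median-of-ratios size factors this split was 113 higher and 137 lower, and with quantile normalization 124 and 164. The animals of one breed all lay above those of the other in 6 of the 7 genes, 3 in each direction, and in 29.1% of all genes tested (20.0% with Luxi cattle higher and 9.13% with Luxi cattle lower). For the troponin genes this count depended on which assembled transcripts were summed: it was 4 with reference transcripts only, 4 with assembled transcripts that had 90% of their bases on exons, and 5 with all same-strand transcripts that overlap the gene. An unadjusted limma p under 0.05 was found in 4 of the 7 genes and in 21.8% of all, and the fold change threshold alone was reached in 6 of the 7 and in 8.06% of all. Fold changes are those of Luxi cattle over Shandong Black cattle on the log2(FPKM + 1) scale, where their median over all genes tested was 0.13, and 0.02 after scaling with the size factors. The direction of each of the 7 genes was the same under every alternative run.

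Troponin I, the inhibitory subunit, gave the call. TNNI1, its slow form, lies on chromosome 16 (ARS-UCD1.2, plus strand, 80895145 to 80907893). Its FPKM was 438, 590 and 490 in B1, B2 and B3 and 88.3, 58.5 and 190 in L1, L2 and L3. Every Luxi animal lay below every Shandong Black animal, and the mean was 4.50 times higher in Shandong Black cattle. The log2 fold change was -2.32 with a standard error of 0.46 (limma adjusted p = 0.0471), lower in 3 of 3 Luxi animals.

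This call rested close to the threshold and was made under 8 of 18 alternatives, with limma adjusted p between 0.0298 and 0.192. Without B1, B2, B3 or L2 the limma adjusted p was 0.155, 0.110, 0.187 and 0.102, and the log2 fold change ranged from -2.79 to -1.95 when 1 animal was left out. With a pseudocount of 0.1 the limma adjusted p was 0.0504, with the replicate number as a block 0.0698 and with all genes tested whatever their FPKM 0.112. With 90% of bases on exons it was 0.166, and the breeds then overlapped. Counting reference transcripts alone gave -1.20 on the log2 scale (limma adjusted p = 0.192).

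TNNI2, the fast form of the inhibitory subunit, lies on chromosome 29 (minus strand, 49645742 to 49648340). Its FPKM was 131, 482 and 289 in Shandong Black cattle and 491, 1878 and 1633 in Luxi cattle. The breeds did not overlap, although the lowest Luxi animal, L1, exceeded the highest Shandong Black animal, B2, by little. On reference transcripts alone L1, at 429, lay below B2, at 482. With a log2 fold change of 2.12 (SE 0.68), TNNI2 did not pass the test (limma adjusted p = 0.134). Without L1 it was 2.73 and passed (limma adjusted p = 0.0405).

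Troponin T anchors the complex, and its slow form TNNT1 lies on chromosome 18 (plus strand, 62274624 to 62285833). TNNT1 had an FPKM of 935, 750 and 953 in Shandong Black cattle and of 585, 118 and 604 in Luxi cattle. All 3 Luxi animals were lower, with L2 far below the others. TNNT1 did not pass the test, with a log2 fold change of -1.33 (SE 0.65, limma adjusted p = 0.284), or -0.56 without L2.

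TNNT3, the fast form of troponin T, lies on chromosome 29 (minus strand, 49579057 to 49594751), 51.0 kb from TNNI2. It showed the largest difference of the 7 genes. Its FPKM was 49.1, 330 and 261 in Shandong Black cattle and 585, 2142 and 1600 in Luxi cattle, with no overlap and a mean 6.75 times higher in Luxi cattle. Even so, its log2 fold change of 2.95 (SE 0.81) missed the threshold (limma adjusted p = 0.101). With the replicate number as a block TNNT3 passed (limma adjusted p = 0.0385), but the number does not join animals of the breeds in any way the labels state. Leaving out single animals gave 2.098 (without B1) to 3.50 (without L1).

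TNNC1, the slow and cardiac form of troponin C, the calcium sensor, lies on chromosome 22 (plus strand, 48434858 to 48437752). Its FPKM was 5062, 5050 and 4999 in Shandong Black cattle and 3585, 932 and 3798 in Luxi cattle. The Shandong Black animals lay within 1.01-fold of each other, and each Luxi animal was lower. TNNC1 did not pass, with a log2 fold change of -1.11 (SE 0.63, limma adjusted p = 0.346), or -0.45 without L2.

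TNNC2, the fast form of troponin C, lies on chromosome 13 (minus strand, 74596932 to 74599856). Its FPKM was 426, 220 and 863 in Shandong Black cattle and 129, 5079 and 4754 in Luxi cattle. L2 and L3 were far above all other animals and L1 was below all of them, a range of 39.4-fold within the breed. With a log2 fold change of 1.76 (SE 1.39), TNNC2 did not pass (limma adjusted p = 0.487). Without L1 it was 3.50 and passed (limma adjusted p = 0.0269), so that 3 of the 7 genes were called when this animal was left out. Calls also rose over all genes tested: 593 of 9707 were called without L1, against 251 of 9781 with all animals kept.

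TNNT2, the cardiac form of troponin T, lies on chromosome 16 (plus strand, 80931617 to 80943043), 23.7 kb from TNNI1. Its FPKM was 0.298, 1.01 and 0.948 in Shandong Black cattle and 2.80, 1.14 and 2.61 in Luxi cattle. These levels were low in all animals, and the breeds did not overlap, although they did with reference transcripts only, with 90% of bases on exons and with all same-strand transcripts that overlap the gene. TNNT2 did not pass, with a log2 fold change of 0.84 (SE 0.29, limma adjusted p = 0.148). Reference transcripts of the gene were found in L1 and L2 only, and the values of the other 4 animals came from assembled transcripts that covered part of the gene near its 3′ end.

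**Figure D2:**
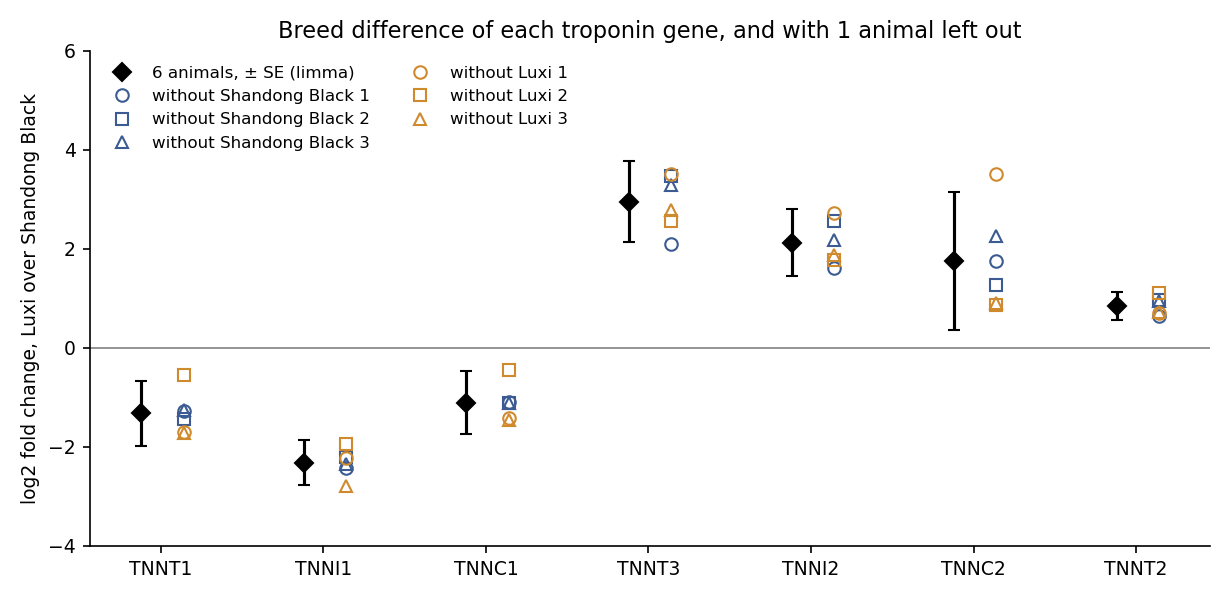
Log2 fold change of each troponin gene, Luxi over Shandong Black, from limma on 6 animals with its standard error (black diamonds), and with 1 animal left out (open symbols). No gene changes sign, and TNNC2 ranges most widely, from 0.86 without L2 to 3.50 without L1.

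The fast to slow ratio of a subunit is taken within a library and does not depend on how libraries are scaled. For troponin T, the fast share of the pair (TNNT3 in TNNT3 plus TNNT1) was 4.99, 30.6 and 21.5% in Shandong Black cattle and 50.01, 94.8 and 72.6% in Luxi cattle. The slow gene thus dominated in B1 to B3, both genes were level in L1, and the fast gene dominated in L2 and L3. The mean log2 ratio was -2.42 ± 1.60 (SD, n = 3) and 1.86 ± 2.12 (SD, n = 3), a difference of 4.28 (SE 1.53).

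For troponin I, the fast share (TNNI2 in TNNI2 plus TNNI1) was 23.0, 45.0 and 37.1% in Shandong Black cattle and 84.8, 97.0 and 89.6% in Luxi cattle. The gap between the nearest animals was 39.8 percentage points, against 19.4 for troponin T. It rested on the assembled transcripts of TNNI1: on reference transcripts alone the fast share was 81.3, 91.04 and 76.7% in Shandong Black cattle and 96.7, 98.7 and 98.2% in Luxi cattle, so that the fast gene dominated in both breeds and the gap was 5.61 percentage points. The mean log2 ratio was -0.93 ± 0.74 (SD, n = 3) against 3.51 ± 1.31 (SD, n = 3), a difference of 4.44 (SE 0.87), or 3.19 on reference transcripts alone.

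For troponin C, the fast share (TNNC2 in TNNC2 plus TNNC1) was 7.76, 4.17 and 14.7% in Shandong Black cattle and 3.47, 84.5 and 55.6% in Luxi cattle. L1 was the lowest of all animals, while the other Luxi animals were the highest. The mean log2 ratio was -3.54 ± 0.99 (SD, n = 3) and -0.67 ± 3.72 (SD, n = 3), a difference of 2.87 (SE 2.22).

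By exact two-sided permutation tests, the ratios of troponin T and of troponin I each had p = 0.1, the smallest that 3 animals against 3 can give, and that of troponin C had p = 0.4. Adjusted over the 3 ratios by Benjamini-Hochberg, these exact permutation values were 0.15, 0.15 and 0.4. Without L1 the differences were 5.21 for troponin T, 4.97 for troponin I and 4.92 for troponin C. Without L2 that of troponin C was 1.31.

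**Figure D3:**
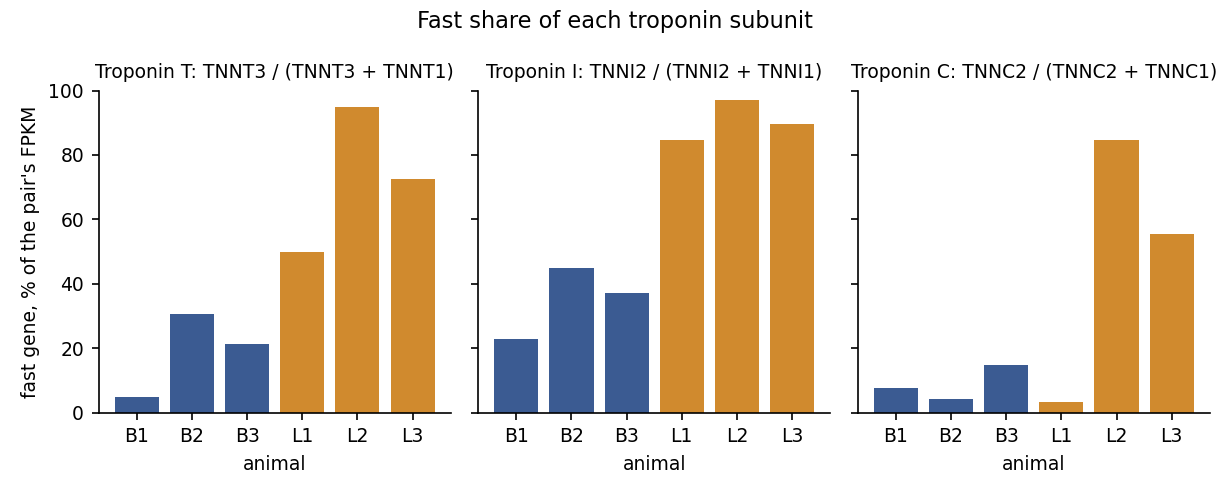
Fast gene as a percentage of the summed FPKM of the fast and slow gene of each troponin subunit, 1 bar per animal (B, Shandong Black; L, Luxi). The breeds separate for troponin T and I, and for troponin C L1 has 3.47% while L2 has 84.5%.

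L1 therefore carried a mixed set: its fast share was 84.8% for the inhibitory subunit, 50.01% for the tropomyosin-binding subunit and 3.47% for the calcium sensor. In L2 the shares of the subunits were between 84.5 and 97.0%, and in L3 between 55.6 and 89.6%. In Shandong Black cattle troponin I had the highest fast share of the subunits in all 3 animals. Troponin C had the lowest in B2, at 4.17%, and in B3, at 14.7%, and troponin T in B1, at 4.99%. Over all 7 genes, fast transcripts held 8.60 to 17.99% of troponin FPKM in Shandong Black cattle and 22.04, 89.1 and 63.5% in L1, L2 and L3.

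Alternative splicing adds further forms, above all in troponin T, where exons near the amino end are skipped or kept and change the calcium response of the filament. Transcripts were followed by their identifiers in the reference annotation. StringTie divides the reads of a gene between its transcripts by a model, so the shares below are estimates. The main transcript of each of the 4 genes with several reference transcripts was compared between the breeds. These were rna74887 of TNNT3, rna52888 of TNNT1, rna46968 of TNNT2 and rna46964 of TNNI1. The exact permutation p was 0.3, 0.2, 0.4 and 0.1, each 0.4 after Benjamini-Hochberg adjustment over the 4 genes. The smallest exact permutation p possible with these animals is 0.1, so none could pass at 0.05. The test therefore cannot show that the shares are alike. The breeds did not overlap in the share of rna46964, and overlapped in the others.

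TNNT1 was made up mainly of 2 of the 6 reference transcripts detected. rna52888 held 45.4, 62.4 and 51.6% of its FPKM in Shandong Black cattle and 94.8, 92.6 and 55.1% in Luxi cattle. rna52885 had an FPKM of 414, 225 and 366 in Shandong Black cattle and of 1.97, 0.711 and 235 in Luxi cattle. As StringTie divided the reads, rna52885 was thus close to absent in L1 and L2 and present in L3 at a level like that of B2. Depth on its 61-base first exon, which other transcripts share, was 310, 437 and 512 in Shandong Black cattle. It was 230, 61.5 and 102 in Luxi cattle, so depth there fell less in L1 than the FPKM of rna52885 did.

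These TNNT1 transcripts differ in a 33-base exon (chromosome 18, 62277136 to 62277168), which rna52888 contains and rna52885 skips. They also differ in where they end and in where they start (62276440 for rna52888 and 62274624 for rna52885). Transcripts with this exon held 49.4, 67.1 and 56.6% of the FPKM of the gene in Shandong Black cattle and 98.8, 96.9 and 57.2% in Luxi cattle. The depth of sequence gave the same order of animals in part: depth on the 33-base exon was 36.7, 51.2 and 42.8% of that on the 22-base exon that follows it in Shandong Black cattle, and 68.1, 75.8 and 37.2% in Luxi cattle. L1 and L2 were above all others by either measure, and L3 was among the Shandong Black animals.

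Sequence depth fell towards the 5′ end of TNNT1 in all animals. Depth on its 64-base exon was 24.9 to 32.3% of that on the 114-base exon downstream, with the breeds overlapping. Further 5′, the 30-base exon (62276879 to 62276908, taken with its 51-base form) was lower in every Luxi animal. Its depth was 9.77, 9.93 and 11.3% of that on the 114-base exon in Shandong Black cattle and 6.97, 7.84 and 5.08% in Luxi cattle. Nearer the 3′ end, depth on the 91-base exon was 88.2, 70.5 and 83.2% of that on the 114-base exon in Shandong Black cattle and 49.9, 50.8 and 52.1% in Luxi cattle. Here too the breeds did not overlap. The part of these depth differences in the FPKM and the transcript shares of TNNT1 was not tested.

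TNNT3 showed the richest set of forms, with 34 reference transcripts, of which 6 reached 5% of the FPKM of the gene in at least 1 animal. rna74887 was the main one in B2 (74.7%), B3 (69.9%), L1 (46.3%) and L3 (47.2%). In B1, rna74889 with 41.2% was level with rna74887 with 39.7%. In L2, rna74875 held 59.9%, against at most 10.9% in any other animal.

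The 34 TNNT3 transcripts contain, without exception, only 1 of a pair of 41-base exons near the 3′ end, a known mutually exclusive choice of fast troponin T. The downstream exon of the pair (chromosome 29, 49580552 to 49580592) is in 24 transcripts and the upstream exon (49581197 to 49581237) is in 10. Of the depth on the pair, the upstream exon held at most 0.0550% in B1, B2, B3, L1 and L2, and 37.8% in L3. The transcripts that carried it there were rna74876, with 20.7% of the FPKM of the gene, and rna74857, with 13.05%; neither exceeded 0.144% in any other animal. The upstream exon was thus used to a measurable extent in 1 of the 6 animals, and no comparison of the breeds rests on it.

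Further upstream in TNNT3, several short exons varied from animal to animal, with the breeds overlapping. Transcripts with the 42-base exon (49589704 to 49589745) held 56.9, 89.9 and 88.9% of FPKM in Shandong Black cattle and 62.0, 94.8 and 81.1% in Luxi cattle. Transcripts with the 18-base exon at 49590998 to 49591015 held 96.1, 92.1 and 89.1% in Shandong Black cattle and 99.5, 39.2 and 78.02% in Luxi cattle, L2 being lowest.

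TNNI1 was carried mostly by transcripts that StringTie assembled from the reads, not by those of the annotation. Reference transcripts held 6.84 to 36.7% of its FPKM, or an FPKM of 29.97, 47.4 and 88.1 in Shandong Black cattle and 14.9, 21.5 and 29.9 in Luxi cattle. On these alone B1 and L3 were nearly equal. All 17 assembled transcripts counted for TNNI1 ended at the end of the reference transcript rna46964 (80906693), within 5 bases, and not at the last exon, starting at 80907646 in most of them, that the other 6 reference transcripts contain. Forms with this shorter end held 87.3 to 98.4% of the FPKM of the gene in Shandong Black cattle and 97.5 to 99.9% in Luxi cattle.

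In each animal, 1 of the assembled TNNI1 transcripts had 7 exons and started between 80897891 and 80898078. It held 61.3, 71.7 and 82.0% of the FPKM of the gene in Shandong Black cattle and 46.0, 31.5 and 68.7% in Luxi cattle. The share of rna46964 was 5.22, 6.17 and 5.23% in Shandong Black cattle and 16.7, 34.2 and 14.8% in Luxi cattle, higher in 3 of 3 Luxi animals (exact permutation p = 0.1, the smallest possible). The FPKM of rna46964 was 22.9, 36.4 and 25.7 in Shandong Black cattle and 14.8, 20.0 and 28.1 in Luxi cattle, with overlap.

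Other assembled transcripts overlapped TNNI1 on its strand but had under 50% of their bases on its exons, and were left out. They had an FPKM of 30.5 in B1 and 27.5 in L1, beside 438 and 88.3 counted, and none were found in the other animals. With them added, the log2 fold change of TNNI1 was -2.23 (limma adjusted p = 0.0505).

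The remaining genes had fewer forms. TNNC1 and TNNC2 were each carried by 1 transcript, rna62206 and rna39811, with all but a trace of their FPKM. TNNI2 was carried by rna74894 in the same way in B1, B2, B3 and L3, while in L1 and L2 an assembled form with 7 exons in place of 8 left 87.5 and 86.9% to it. Assembled transcripts on the opposite strand of the 6 skeletal genes had an FPKM of 0.103 to 5.17% of that of the gene. Most had several exons and covered much of the same stretch as the gene, and whether they are separate transcripts was not tested.

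**Figure D4:**
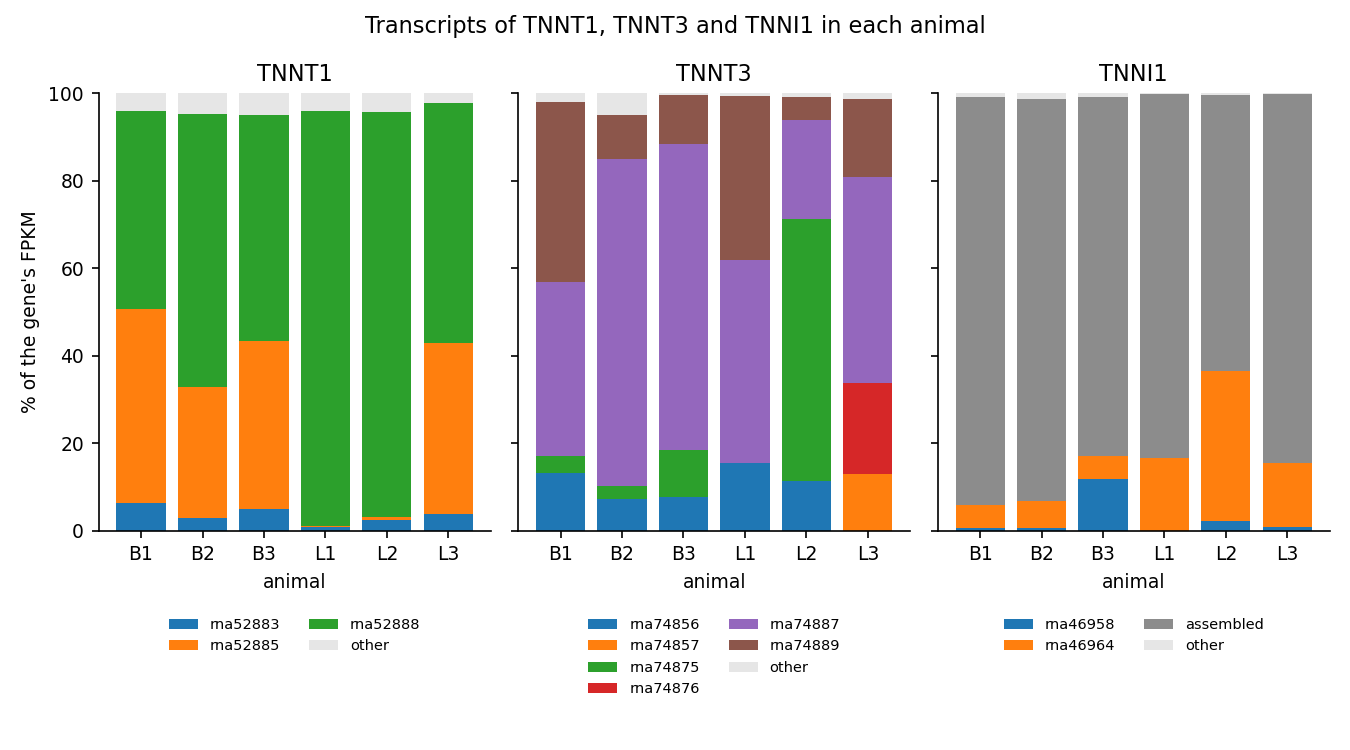
Share of the FPKM of TNNT1, TNNT3 and TNNI1 held by each transcript with at least 5% in 1 or more animals, by animal (B, Shandong Black; L, Luxi); grey, assembled transcripts of TNNI1. rna52885 of TNNT1 nearly vanishes in L1 and L2, and rna74876 and rna74857 of TNNT3 appear in L3.

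Genes of the same fibre types were read beside the troponins. Of 7 slow fibre genes, all were tested and none passed by limma (3 had an unadjusted p under 0.05), with 6 lower and 1 higher in Luxi cattle and a median log2 fold change of -1.01, against 0.13 over all genes. Their summed FPKM was 20282 to 26578 in Shandong Black cattle and 2337 to 9340 in Luxi cattle. Most of this sum was MYL2 in every animal, so the sum mainly restates that gene and not the list. MYL2, the slow regulatory myosin light chain, had 24909, 16912 and 20824 in Shandong Black cattle and 5810, 1513 and 7936 in Luxi cattle (log2 fold change -2.32, SE 0.73, limma adjusted p = 0.131).

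The slow genes did not move as one. MYL3, the slow essential light chain, went the other way (13.1, 46.4 and 26.6 in Shandong Black cattle against 1180, 63.5 and 244 in Luxi cattle), without overlap and highest in L1, but did not pass (log2 fold change 3.33, SE 0.99, limma adjusted p = 0.119). CASQ2, the slow and cardiac calsequestrin, had lower values in every Luxi animal (log2 fold change -2.17, limma adjusted p = 0.110). MYL3 and CASQ2 were named after their values were seen. The remaining 4 overlapped between the breeds. MYH7, the slow myosin heavy chain, had an FPKM of 280, 2097 and 235 in Shandong Black cattle and 120, 479 and 289 in Luxi cattle. TPM3, slow tropomyosin, had 806, 699 and 807 against 906, 213 and 520. ATP2A2, the slow calcium pump, had 335, 401 and 356 against 681, 49.6 and 267.

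Of 10 fast fibre genes, 9 were measured and 8 tested. None passed by limma (4 had an unadjusted p under 0.05), all 8 had a higher log2 mean in Luxi cattle and 1 did not overlap, with a median log2 fold change of 1.96. Their summed FPKM was 3117 to 4744 in Shandong Black cattle and 4056, 24191 and 21974 in L1, L2 and L3, so that L1 lay within the other breed. MYLPF, the fast regulatory light chain, had 779, 2598 and 1519 in Shandong Black cattle and 2065, 10464 and 11149 in Luxi cattle. MYL1, the fast alkali light chain, had 1385, 119 and 1864 against 417, 5332 and 5715, with L1 low as in TNNC2. ATP2A1, the fast calcium pump, had 289, 455 and 371 against 510, 2813 and 1502, and CASQ1, the fast calsequestrin, had 472, 536 and 478 against 476, 1375 and 1568. MYH4 was not analysed here.

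The partners of troponin on the thin filament split by gene. Of 17 tested, 1 passed, 7 were higher and 10 lower in Luxi cattle, and the median log2 fold change was -0.23. The gene that fell was ACTC1, the actin of heart and developing muscle, with an FPKM of 946, 278 and 735 in Shandong Black cattle and 5.53, 7.62 and 26.7 in Luxi cattle (log2 fold change -5.64, SE 0.65, limma adjusted p = 0.0148). ACTA1, the main skeletal actin, had 32188, 41650 and 38234 against 12237, 54910 and 47110. TPM1, the fast tropomyosin, had 249, 72.8 and 471 against 585, 2832 and 2978, without overlap (log2 fold change 3.05, SE 0.87, limma adjusted p = 0.106). TPM2, present in both fibre types, had 2305, 2893 and 2651 against 1861, 3576 and 4041. KLHL41, which guards thin filament proteins, had 1767, 636 and 708 against 243, 765 and 496.

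Of 18 transcription factors and cofactors known to govern slow and fast genes, 17 were measured and tested. SOX6, a repressor of slow fibre genes, passed and was higher in Luxi cattle, with an FPKM of 1.73, 2.82 and 1.99 in Shandong Black cattle and 7.19, 11.2 and 7.96 in Luxi cattle (log2 fold change 1.62, SE 0.22, limma adjusted p = 0.0206). In all, 11 were higher and 6 lower, with a median log2 fold change of 0.51. An unadjusted limma p under 0.05 was found in 11 of the 17, and in 21.8% of all genes tested. The breeds did not overlap in 7 genes that were higher and 3 that were lower, and in 20.0% and 9.13% of all. TBX15, a factor of glycolytic fibres, had 13.8, 22.2 and 14.7 against 35.0, 57.1 and 38.1 (limma adjusted p = 0.0607). VGLL2, a cofactor of muscle fibre identity, had 73.2, 50.2 and 64.04 against 24.9, 34.9 and 39.9 (limma adjusted p = 0.125). MEF2C, a factor of muscle differentiation, overlapped between the breeds (limma adjusted p = 0.298).

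Of 10 kinases, phosphatases and calcium sensors that act on troponin or share its calcium signal, 9 were tested and none passed by limma (3 had an unadjusted p under 0.05), with 6 higher and 3 lower and a median log2 fold change of 0.52. CALM2 and CALM3, which code for calmodulin, had higher values in every Luxi animal, but neither passed, at 0.80 and 1.47 on the log2 fold change scale (limma adjusted p = 0.125 and 0.149). S100A1, a calcium-binding protein of striated muscle, had an FPKM of 288, 155 and 224 in Shandong Black cattle and 101, 51.5 and 199 in Luxi cattle.

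Markers of other cells were checked in the same libraries. All 5 fat cell genes were lower in every Luxi animal and 4 passed the test, with a summed FPKM of 109 to 173 in Shandong Black cattle and 2.04 to 17.3 in Luxi cattle, lowest in L1. The genes that fell were ADIPOQ, FABP4, PLIN1 and CIDEC, which code for adiponectin, the fat cell lipid carrier and 2 lipid droplet proteins, with log2 fold changes of -3.50, -3.90, -3.06 and -2.78 (limma adjusted p between 0.00701 and 0.0368). The part of fat tissue in the troponin differences was not tested. Smooth muscle genes summed to 51.3 to 55.9 in Shandong Black cattle and 30.8 to 110 in Luxi cattle, none of 3 passing by limma (1 had an unadjusted p under 0.05), and all 3 (MYH11, ACTA2 and CNN1) overlapped. Globin genes summed to at most 1.34.

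Of 7 cardiac genes, MYH6 and MYL4 were measured and neither reached the filter. Their summed FPKM was at most 0.437 in any animal, beside 2.80 for TNNT2 in L1 and 932 to 5062 for TNNC1. Of 5 genes of embryonic and regenerating fibres, 3 were tested and none passed by limma (0 had an unadjusted p under 0.05). MYH8, the perinatal myosin, had an FPKM of 1.43, 104 and 23.9 in Shandong Black cattle and 0.0140, 415 and 349 in Luxi cattle, MYOG had 51.5, 12.4 and 42.2 against 1.15, 7.89 and 24.4, and MYOD1 had 1.03 to 4.53 over the 6 animals. L1 had the lowest level of all 3 genes.

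The genes whose profile over the 6 animals lay nearest to each skeletal troponin were found by the root mean square difference of log2(FPKM + 1), each gene centred on its own mean. For TNNI1 they were the annotated microRNA genes MIR206, under 2 entries (0.20 and 0.23), and MIR133B (0.27), where the profile of TNNI1 itself had a root mean square of 1.27. The FPKM of the nearer MIR206 entry was 5.11, 8.07 and 5.15 in Shandong Black cattle and 0.00104, 0.0329 and 1.49 in Luxi cattle. These are microRNAs of muscle. The values do not show whether an entry is the precursor or the mature form, so they are not read as levels of the mature molecule. This likeness depended on the pseudocount of 1, which compresses values as low as those of L1 and L2. With a pseudocount of 0.1 the MIR206 entries lay 1.36 and 1.38 from TNNI1, and the nearer one had rank 4257 by nearness.

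TNNT1 and TNNC1 shared SMPDL3A, a phosphodiesterase-like enzyme, as their nearest gene (0.20 and 0.13). TNNT1 was followed by LDHB, the lactate dehydrogenase chain of oxidative muscle (0.23), and ZNF106 (0.23), and TNNC1 by PDLIM1 (0.14) and NGRN (0.18). TNNT1 and TNNC1 were as near to each other (0.19), while TNNI1 lay farther from both (0.74 from either).

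Among the fast genes, TNNI2 was nearest to AK1, an adenylate kinase of muscle (0.18), MYLPF (0.21) and NMRK2 (0.31). TNNT3 was nearest to ACTN3, the fast fibre alpha-actinin (0.63), NMRK2 (0.66) and MYLPF (0.66), and TNNI2 lay nearer to it than these (0.56). TNNC2 had no close match: its nearest genes were SERBP1 (0.86), PDLIM7 (0.89) and MYH1, the IIx myosin heavy chain (0.92), and it lay 1.47 from TNNI2 and 1.71 from TNNT3. With a pseudocount of 0.1, 5 of the 18 genes listed as nearest stayed among the 3 nearest of their troponin (LDHB, PDLIM1, NGRN, AK1 and MYLPF, the latter for TNNI2), while SERBP1 and MYH1, both low in Shandong Black cattle, had ranks 93 and 2927 for TNNC2. These distances are a description over 6 animals of 2 breeds.

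**Figure D5:**
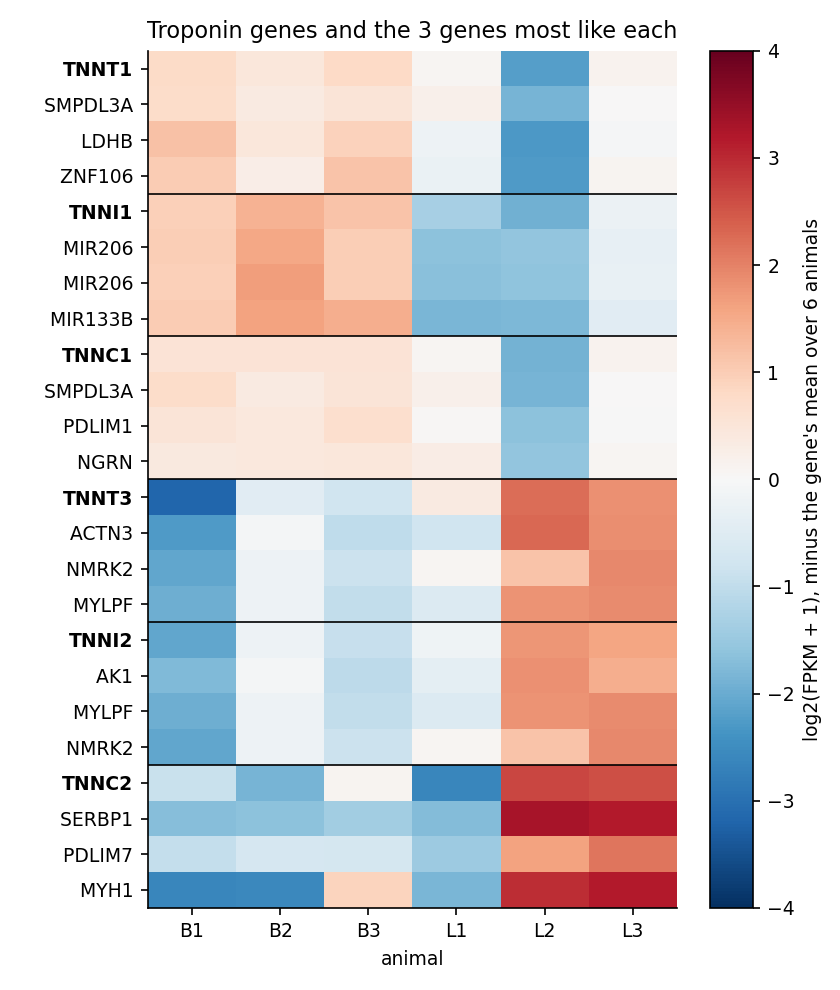
Colour gives log2(FPKM + 1) minus the mean of the gene over the 6 animals (columns; B, Shandong Black; L, Luxi) for each skeletal troponin gene (bold) and the 3 genes nearest to it. The slow genes are lowest in L2, and TNNC2 is low in L1 and high in L2 and L3.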

How the data were processed

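Reads of TruSeq libraries were trimmed (Fastp) and aligned to ARS-UCD1.2 (HISAT) by the authors. Transcripts of each library were then assembled by StringTie (version 1.3.3b per the file headers), guided by the NCBI annotation and with strand. The files deposited by the authors list the coverage, FPKM and TPM of every reference and assembled transcript. The aligned bases of a library are the ratio of coverage to FPKM. No whole-number counts were used, so no counting error is given. SDs, and the SEs of ratios, rest on the spread of the 3 animals per breed. SEs of fold changes are those of limma, which draws the spread of a gene towards a trend over all genes tested. The animals are separate samples.

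Gene FPKM summed the reference transcripts and those unnamed assembled transcripts that had 50% or more of their length on the exons of the gene, same strand. Assembled transcripts left out held 21.6 to 29.8% of a library's FPKM. Genes whose mean FPKM reached 1 in either breed were fitted with limma 3.58.1 (lmFit, eBayes with trend, no covariate; R 4.3.3) on log2(FPKM + 1), which understates the change of low genes, with Benjamini-Hochberg adjustment over 9781 genes. Ratios and transcript shares were compared by exact two-sided permutation tests (scipy 1.17.1). Chromosome numbers were matched by gene name to ARS-UCD2.0, and coordinates are those of the files.

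The members and gene lists were chosen with earlier results of these data known. Named were the 8 members, the called genes and up to 4 genes of highest mean FPKM in each list, the 3 tested genes nearest to each skeletal member, and transcripts with at least 5% of their gene's FPKM in 1 animal, except that 2 list genes are not reported here; single exons, the transcript ends of TNNI1 and the depth along TNNT1 were picked after their values were seen, as were MYL3 and CASQ2.

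The alternatives were other pseudocounts, other filters, TPM, size factors, quantile normalization, no trend, a replicate block, reference transcripts only, 90% of bases on exons, a log2 fold change of at least 2 and each animal left out. All assembled transcripts that overlap a troponin gene on its strand, and a pseudocount of 0.1 for the nearest genes, were added after the data were seen. The correlation of the deviations of same-numbered animals was 0.0840, 0.0869 and 0.0745. Deviations from a breed mean cancel within the breed, so these values cannot decide whether the animals were paired. The numbers were not taken as pairs in the main fit because the labels state no pairing.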

Additional observations from a re-analysis of the deposited data

How the results depend on the processing

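Of 125 refits of the 7 single genes under an alternative, 112 kept both the direction and the side of the threshold, 10 lost the call of TNNI1 and 3 gained a call; none reversed, and neither did any of the 39 ratios or 35 transcript shares recomputed. TNNI1 was called under 8 of its 18 alternatives. No troponin gene was called, in place of 1, at a pseudocount of 0.1, with all genes tested whatever their FPKM, with reference transcripts only, with 90% of bases on exons, or with all same-strand transcripts that overlap the gene (0 each by limma, where 3 or 4 had an unadjusted p under 0.05). Over all genes, in place of 251 calls, 63 were made without a filter, 134 with a mean FPKM of at least 5, 163 with reference transcripts only and 67 at a log2 fold change of at least 2. The causes were not tested. With 1 animal left out, 0 to 3 troponin genes and 3 to 593 genes in all were called, the fewest without B3 and the most without L1, and the log2 ratio differences were 3.13 to 5.21 (troponin T), 3.71 to 4.97 (troponin I) and 1.31 to 4.92 (troponin C). The share difference of rna46964 of TNNI1 was 16.4 percentage points, 34.8 over reference transcripts only and 14.2 as a share of bases. With the replicate number as a block, 135 genes were called, TNNT3 was called and TNNI1 was not (limma adjusted p = 0.0698); the exact sign-flip p of the log2 ratios was 0.25 (troponin T and I, the smallest possible) and 0.5 (troponin C), with differences of 4.28, 4.44 and 2.87. In its deviation from the breed mean, each animal correlated best with the animal of its own number in the other breed (0.0840, 0.0869 and 0.0745). Deviations from the mean of 3 animals cancel within a breed, so some best match is bound to arise and this cannot decide whether the animals were paired. In log2(FPKM + 1) itself B1, B2 and B3 each correlated best with L3 (0.887, 0.907 and 0.905). No setting matched the depth of the libraries, so its part in these values was not tested.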
